A study of Mus musculus with 15 samples.

Results

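The replication-dependent histone genes of the mouse kidney were followed through ureteral obstruction and through a silicon-based diet given during obstruction. They were taken as all rows of the deposited count table whose symbol starts with Hist1h, Hist2h, Hist3h or Hist4h, which gave 68 of 24421 genes (0.278%). By class they were 6 genes for linker histone H1, 18 for H2A, 19 for H2B, 12 for H3 and 13 for H4. All 68 were found in the GENCODE M21 annotation of GRCm38, with 54 on chromosome 13, 10 on chromosome 3, 3 on chromosome 11 and 1 on chromosome 6. In 63 of them every annotated transcript had a single exon.

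The samples were kidneys of wild-type mice on day 14. They came from unilateral ureteral obstruction with the silicon-based diet (UUO_Si, n = 6), obstruction with normal diet (UUO, n = 6) and a sham operation with normal diet (sham, n = 3). In this model the ureter of a kidney is tied off, and tubule injury and fibrosis of the interstitium follow. No sham group received the silicon-based diet, so UUO_Si differed from sham in both operation and diet. The sources used here give neither the strain, age and sex of the animals nor the composition of the agent.

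Replication-dependent histones are made in bulk during S phase, when new DNA is packed into nucleosomes built on cores of H2A, H2B, H3 and H4 and bound between cores by H1. Their genes lie in clusters and have no introns in most cases, and the mRNA normally ends behind a conserved stem-loop instead of a poly(A) tail. The stem-loop is bound by Slbp and is needed for 3′ end formation, translation and the rapid loss of the mRNA when DNA synthesis stops. Poly(A) selection misses such mRNA, whereas the libraries here were made from total RNA. Some H1 and core histone genes are also read in cells that do not divide, in part as polyadenylated transcripts. In the healthy kidney few cells divide, and injured tubules and interstitial cells are known to enter the cell cycle after obstruction.

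The stem-loop marks the family, and the following 6 are shown because they belong to genes that behaved differently in the results. The search was for GGNNNTTNTNANNNCC on the sense strand of GENCODE M21 transcripts, with the 6 bases at each end pairing. Capitals mark the 16-base stem-loop, written as DNA, with 5 transcript bases on each side.
Hist1h1c (chr13:23739512-23739527, plus strand): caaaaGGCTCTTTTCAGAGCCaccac
Hist1h3b (chr13:23752820-23752835, plus strand): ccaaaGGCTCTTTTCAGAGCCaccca
Hist1h2bb (chr13:23747203-23747218, plus strand): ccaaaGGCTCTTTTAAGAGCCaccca
Hist2h2ac (chr3:96220418-96220433, minus strand): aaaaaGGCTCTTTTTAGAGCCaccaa
Hist1h4d (chr13:23581950-23581965, plus strand): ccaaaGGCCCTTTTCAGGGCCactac
Hist1h4c (chr13:23698089-23698104, minus strand): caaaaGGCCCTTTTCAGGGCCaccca
The motif was found in 46 of the 68 genes, and in 70 of 21924 protein-coding genes of the annotation (0.319%). Of these 70, 24 are outside the 68, so the motif alone does not define the set used here. Sequence past the annotated end of a transcript was not searched, so a gene without a match may still have a stem-loop. The form of Hist1h1c and Hist1h3b was shared by 26 genes of the H1, H2A, H2B and H3 classes. The form of Hist1h4d and Hist1h4c was found in 7 genes, all of class H4. Hist1h4d and Hist1h4c thus carry the same 16 bases, with log2 fold changes of 1.10 and -0.76 after obstruction, as do Hist1h1c and Hist1h3b, with -0.10 and 2.68.

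Levels are given as CPM, the counts per 1000000 counts of the library after scaling with TMM, and log2 fold changes come from edgeR's quasi-likelihood test with p-values adjusted over 16752 genes by the Benjamini-Hochberg method. A gene was called at an adjusted p below 0.05. Each fold change is followed by its standard error. Where 3 levels are given for UUO or UUO_Si they are the lowest, the median and the highest library, and for sham they are replicates 1 to 3. Library totals were 7.75 to 11.47 in UUO_Si, 11.2 to 15.4 in UUO and 5.53 to 8.31 in sham, in units of 1000000 counts. In 4 libraries, UUO_Si replicate 6, UUO replicates 5 and 6 and sham replicate 3, 834 to 1287 of 1463 olfactory and vomeronasal receptor genes had counts, against 102 to 169 in the other libraries. Whether replicates were separate animals is not stated in the labels, and the spread that the p-values rest on may therefore be technical.

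Many values of histone genes were fractions, as counting gives when a read is divided among near-identical genes. Only 15.9% of the values of the histone genes were whole numbers, against 79.0% to 83.0% of all values in a library. Hist1h2bq and Hist1h2br had equal values in all 15 libraries, as did Hist1h2ao and Hist1h2ap, and Hist2h3c1 and Hist2h3c2. Hist2h2aa1 and Hist2h2aa2 were equal in 10 libraries, and Hist1h4n stayed at 2.93 to 3.02 times Hist1h4m. These rows are not separate measurements, and single genes are uncertain to the extent that copies share reads. Whole counts in every library were held by 6 genes, Hist1h1a, Hist1h1t, Hist2h2bb, Hist2h2be, Hist2h4 and Hist4h4. Genes on the opposite strand overlapped 21 of the 68, and none of those genes was in the table. Genes on the same strand overlapped 7 of the 68, among them Hist2h2bb, and Hist1h1e and Hist1h2be overlap each other. Whole counts therefore do not show that reads are unshared.

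After obstruction on the normal diet, most histone genes were higher. Of the 65 genes that passed the filter on low counts, 44 were called higher and 4 lower in UUO than in sham, and 17 did not pass the test. Among all 16752 genes 53.9% were called, 27.5% higher and 26.4% lower. The median log2 fold change was 1.30 over the 65 histone genes and -0.04 over all genes tested. For 40 histone genes every UUO library lay above every sham library, against 24.6% of all genes, and for 3 every UUO library lay below, against 22.3%. In bulk tissue fewer cells of a type and less RNA per cell cannot be told apart, and the same holds for gains. The filter removed Hist1h1t, Hist1h2aa and the pseudogene Hist3h2bb-ps.

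**Figure D1:**
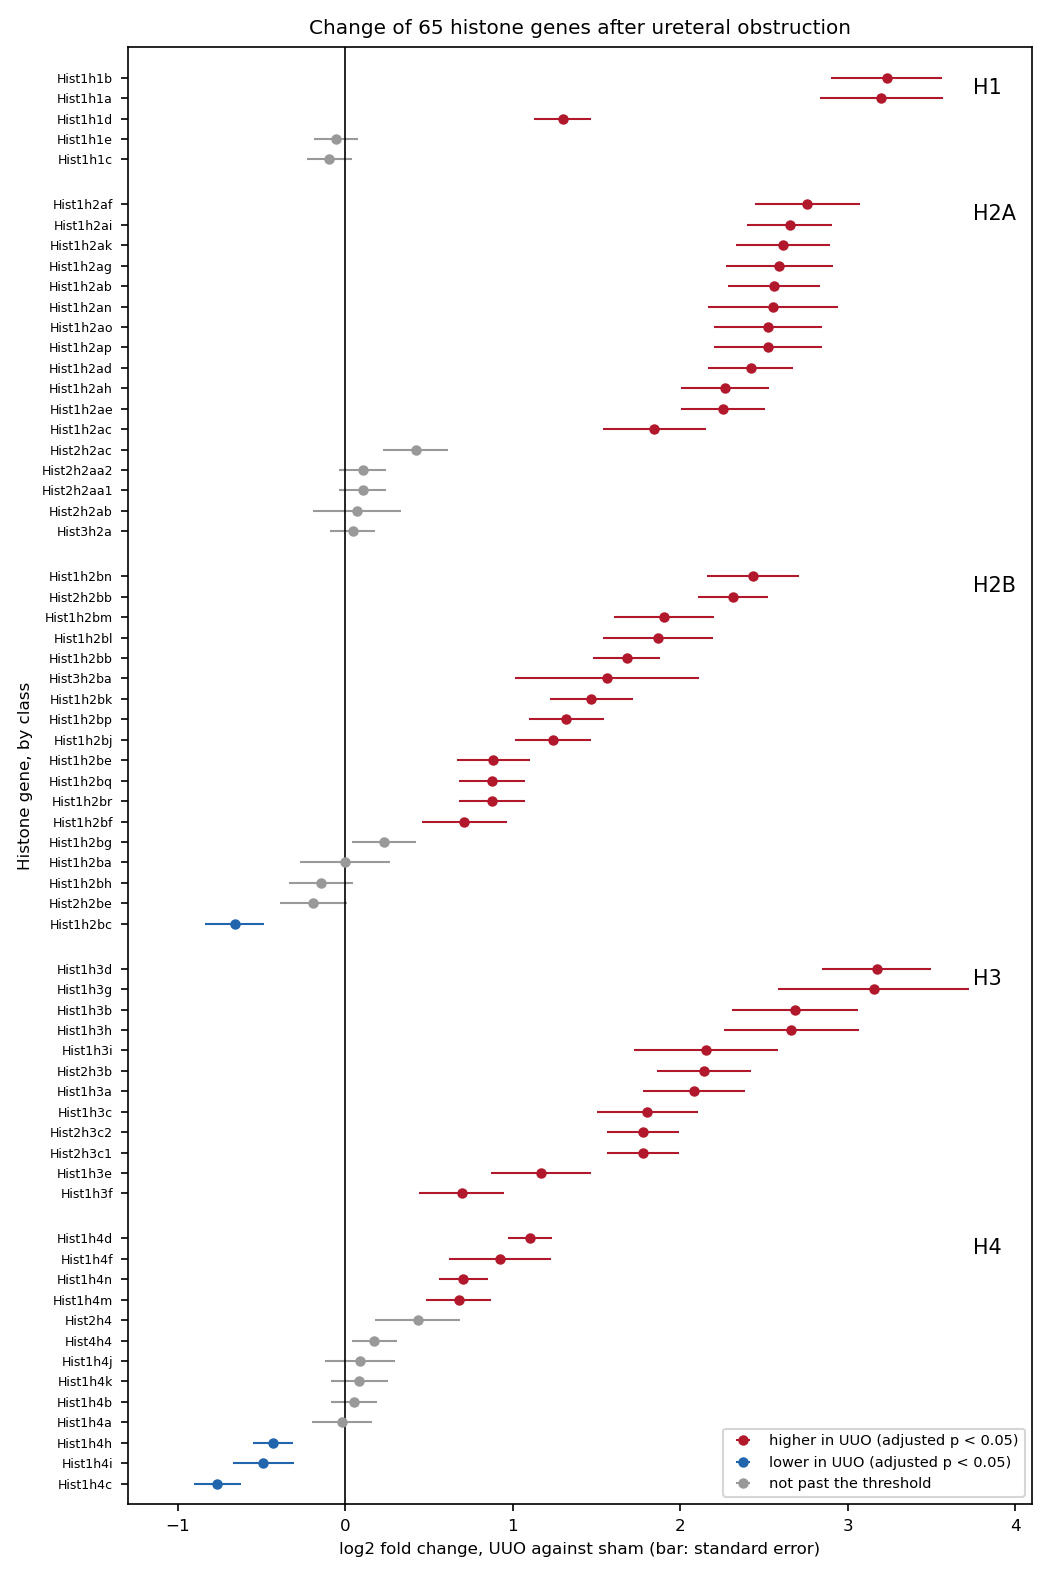
Log2 fold change of each of the 65 histone genes, UUO against sham, with its standard error as a bar and the genes grouped by class. All 12 H3 genes and 12 of 17 H2A genes are called higher (red), while 6 of 13 H4 genes did not pass (grey) and 3 were called lower (blue).

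The classes moved to different extents. All 12 H3 genes, 12 of 17 H2A genes, 13 of 18 H2B genes and 3 of 5 H1 genes were called higher. For H4 it was 4 of 13, near the 27.5% called higher among all genes. The median log2 fold change was 2.11 for H3, 2.42 for H2A, 1.06 for H2B, 1.30 for H1 and 0.09 for H4. In summed level over all 68 genes, the lowest, median and highest library were 1065, 1345 and 1570 CPM in UUO, against 1019, 922.8 and 894.3 CPM in the 3 sham libraries. The sum averaged 1344 ± 173.3 CPM in UUO and 945.5 ± 65.45 CPM in sham (SD, n = 6 and 3), a 1.42-fold difference, and the groups did not overlap. Histone genes took 0.109% to 0.170% of all counts in UUO libraries and 0.0789% to 0.0856% in sham libraries.

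**Figure D2:**
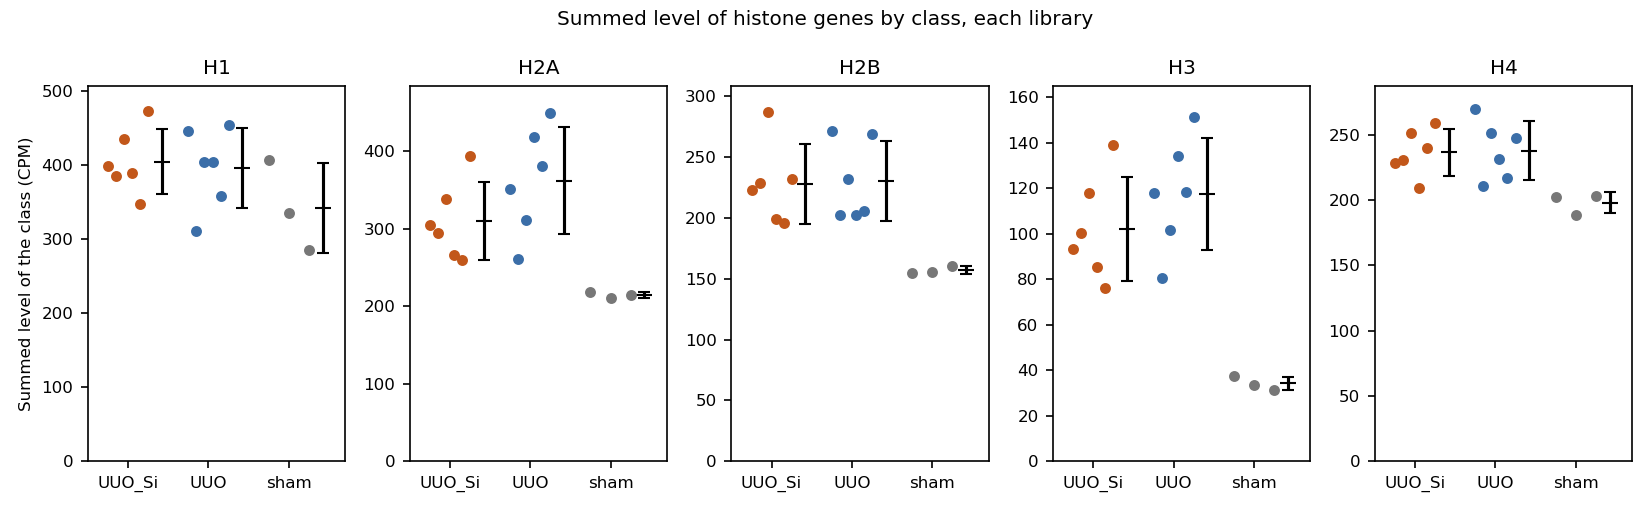
Summed level (CPM) of the genes of each class in every library, with the mean and SD of each group beside its points. The H3 sum lies at 76.3 to 139 CPM in UUO_Si, 80.7 to 151 CPM in UUO and 31.5 to 37.4 CPM in sham, whereas the H1 sums of the 3 groups overlap.

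Linker histone genes split into those that rose strongly and those that did not pass. Hist1h1a (chr13:23763666-23764406), an H1 variant known from dividing cells, had 12.01, 15.1 and 23.0 CPM in UUO, against 2.44, 0.799 and 1.89 CPM in the sham libraries. The groups did not overlap, and the gene rose by 3.20 ± 0.37 on the log2 scale (9.20-fold, adjusted p = 1.16e-06). Its counts were whole numbers, from 156 to 278 in UUO libraries and from 5 to 17 in sham libraries. Hist1h1b (chr13:21779883-21780625), likewise tied to S phase, had 13.8, 16.4 and 23.4 CPM in UUO, against 1.86, 1.44 and 2.27 CPM in sham. It rose by 3.23 ± 0.33 (9.39-fold, adjusted p = 3.07e-07), again without overlap.

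The abundant H1 genes behaved otherwise, and the values of Hist1h1c, Hist1h1d and Hist1h1e were whole in only 13.3% to 26.7% of libraries. Hist1h1c (chr13:23738808-23740367), a linker histone that resting cells also make, had 132.5, 180.4 and 197.5 CPM in UUO, against 218.8, 182.7 and 150.4 CPM in sham. Its log2 fold change was -0.10 ± 0.13 (95% interval -0.38 to 0.19, adjusted p = 0.571). Hist1h1e (chr13:23620629-23622558) had 94.95, 123.9 and 144.1 CPM in UUO, against 151.3, 119.4 and 107.2 CPM in sham, a log2 fold change of -0.06 ± 0.13 (95% interval -0.34 to 0.22, adjusted p = 0.745). For both genes sham replicate 1 lay above every UUO library and sham replicates 2 and 3 lay among them. Hist1h1d rose in between, with 56.7, 63.2 and 87.5 CPM in UUO, against 31.5, 29.9 and 21.6 CPM in sham (1.30 ± 0.17, adjusted p = 5.35e-06).

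The make-up of the linker histone mRNA shifted with this. Hist1h1a and Hist1h1b together averaged 33.4 ± 6.77 CPM in UUO and 3.57 ± 1.15 CPM in sham, 9.35-fold, while Hist1h1c and Hist1h1e together averaged 293.6 ± 38.0 CPM in UUO and 309.9 ± 56.7 CPM in sham (SD, n = 6 and 3). The share of Hist1h1a and Hist1h1b in the H1 sum was 7.59% to 9.60% in UUO libraries and 0.669% to 1.47% in sham libraries. The whole H1 sum, at 395.8 ± 54.4 CPM in UUO and 341.7 ± 61.2 CPM in sham, overlapped between the groups.

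In class H2A, every called gene lay in the Hist1 cluster on chromosome 13, and none of the 5 genes of the other clusters passed. Hist1h2ai (chr13:21716422-21716814), which encodes a core H2A, had 8.70, 13.01 and 15.3 CPM in UUO, against 1.72, 2.08 and 2.27 CPM in sham. It rose by 2.65 ± 0.25 (6.29-fold, adjusted p = 1.32e-07), and every UUO library lay above every sham library. Hist1h2ad and Hist1h2ak rose by 2.42 ± 0.25 (adjusted p = 3.68e-07) and 2.61 ± 0.28 (adjusted p = 5.06e-07). The 12 Hist1 genes of this class that passed the filter had log2 fold changes of 1.85 to 2.76, with reads divided among copies.

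The H2A genes outside that cluster include the most abundant histone genes per length, and none passed the test. Hist2h2aa2 (chr3:96239749-96240276), which shares its reads with Hist2h2aa1, had the highest level per kilobase of exon among the 68 genes in every group, at 133 ± 23.3 CPM per kb in UUO and 123 ± 3.14 CPM per kb in sham (SD, n = 6 and 3). On the CPM scale it had 52.4, 69.3 and 84.4 in UUO, against 66.8, 65.05 and 63.5 in sham, a log2 fold change of 0.10 ± 0.14 (95% interval -0.19 to 0.40, adjusted p = 0.549). Hist2h2ac (chr3:96220361-96220880) had 27.3, 42.1 and 51.9 CPM in UUO, against 33.5, 29.9 and 29.4 CPM in sham, with overlap. Its log2 fold change of 0.42 ± 0.20 did not pass (adjusted p = 0.080), although it passed under 4 of 27 alternative settings. Hist3h2a and Hist2h2ab had log2 fold changes of 0.04 ± 0.13 and 0.07 ± 0.26, which did not pass.

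In class H2B 13 genes rose and 1 fell. Hist2h2bb (chr3:96269752-96270132), a core H2B gene with whole counts, had 29.3, 36.9 and 49.0 CPM in UUO, against 7.45, 7.83 and 7.39 CPM in sham. It rose by 2.32 ± 0.21 (4.98-fold), with the smallest adjusted p of the family (6.44e-08). Hist1h2bn rose by 2.43 ± 0.27 (adjusted p = 9.85e-07) and Hist1h2bb by 1.68 ± 0.20 (adjusted p = 1.90e-06), each without overlap between the groups. The gene Hist1h2bc (chr13:23684199-23692908) went the other way, with 34.8, 41.5 and 58.9 CPM in UUO, against 66.2, 67.4 and 69.9 CPM in sham. All UUO libraries lay below all sham libraries, and it fell by 0.66 ± 0.17 on the log2 scale (adjusted p = 0.0041). Hist2h2be, which lies in the Hist2 cluster and also has whole counts, had a log2 fold change of -0.19 ± 0.20 that did not pass.

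All 12 H3 genes rose. Hist1h3d (chr13:23575763-23577011), a core H3 gene, had 6.52, 7.93 and 9.24 CPM in UUO, against 1.29, 0.320 and 0.947 CPM in sham. It rose by 3.17 ± 0.33 (9.02-fold, adjusted p = 3.35e-07) without overlap. Hist1h3b (chr13:23752267-23752886) had 9.09, 14.4 and 24.2 CPM in UUO, against 2.15, 2.56 and 2.27 CPM in sham, a rise of 2.68 ± 0.37 (adjusted p = 1.08e-05). Hist2h3c1 and Hist2h3c2, whose rows were equal, rose by 1.78 ± 0.21 (adjusted p = 2.22e-06). Hist1h3e rose by 1.17 ± 0.30 (adjusted p = 0.00326) and its groups overlapped. The lowest fold change of the class was that of Hist1h3f, with 7.47, 11.23 and 16.13 CPM in UUO, against 7.74, 7.67 and 5.30 CPM in sham (0.69 ± 0.26, adjusted p = 0.0297), and its groups overlapped too. Its call was lost under 6 of 27 settings, among them without sham replicate 3 and without UUO replicate 6, each of which left 11 of 12 H3 genes called. The H3 sum averaged 117.3 ± 24.6 CPM in UUO and 34.1 ± 3.02 CPM in sham (3.44-fold), the largest ratio of the 5 class sums.

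Class H4 had the smallest median change. Of its 13 genes 4 were called higher and 3 lower, near the shares of all genes, 27.5% higher and 26.4% lower. Hist1h4d (chr13:23581598-23582735) had 72.5, 89.99 and 96.9 CPM in UUO, against 44.7, 32.9 and 45.7 CPM in sham, and rose by 1.10 ± 0.13 (2.15-fold, adjusted p = 1.65e-06). Hist1h4n rose by 0.70 ± 0.15 (adjusted p = 0.000588). By contrast Hist1h4c (chr13:23697635-23698454), with the same stem-loop letters, had 18.2, 19.9 and 26.4 CPM in UUO, against 36.8, 37.9 and 33.0 CPM in sham. It fell by 0.76 ± 0.14 on the log2 scale (adjusted p = 0.00018), with every UUO library below every sham library. Hist1h4h fell by 0.43 ± 0.12 (adjusted p = 0.00584) and Hist1h4i by 0.49 ± 0.18 (adjusted p = 0.0304). The call of Hist1h4h was lost without sham replicate 3 (adjusted p = 0.0584) and without the 4 libraries rich in receptor genes (0.0715), and that of Hist1h4i was lost under 11 of 27 settings. Hist4h4, at 12.4 ± 1.46 CPM in UUO and 10.98 ± 0.803 CPM in sham, and Hist2h4, at 10.2 ± 2.47 CPM in UUO and 7.58 ± 1.46 CPM in sham, have whole counts and did not pass (adjusted p = 0.284 and 0.164).

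**Figure D3:**
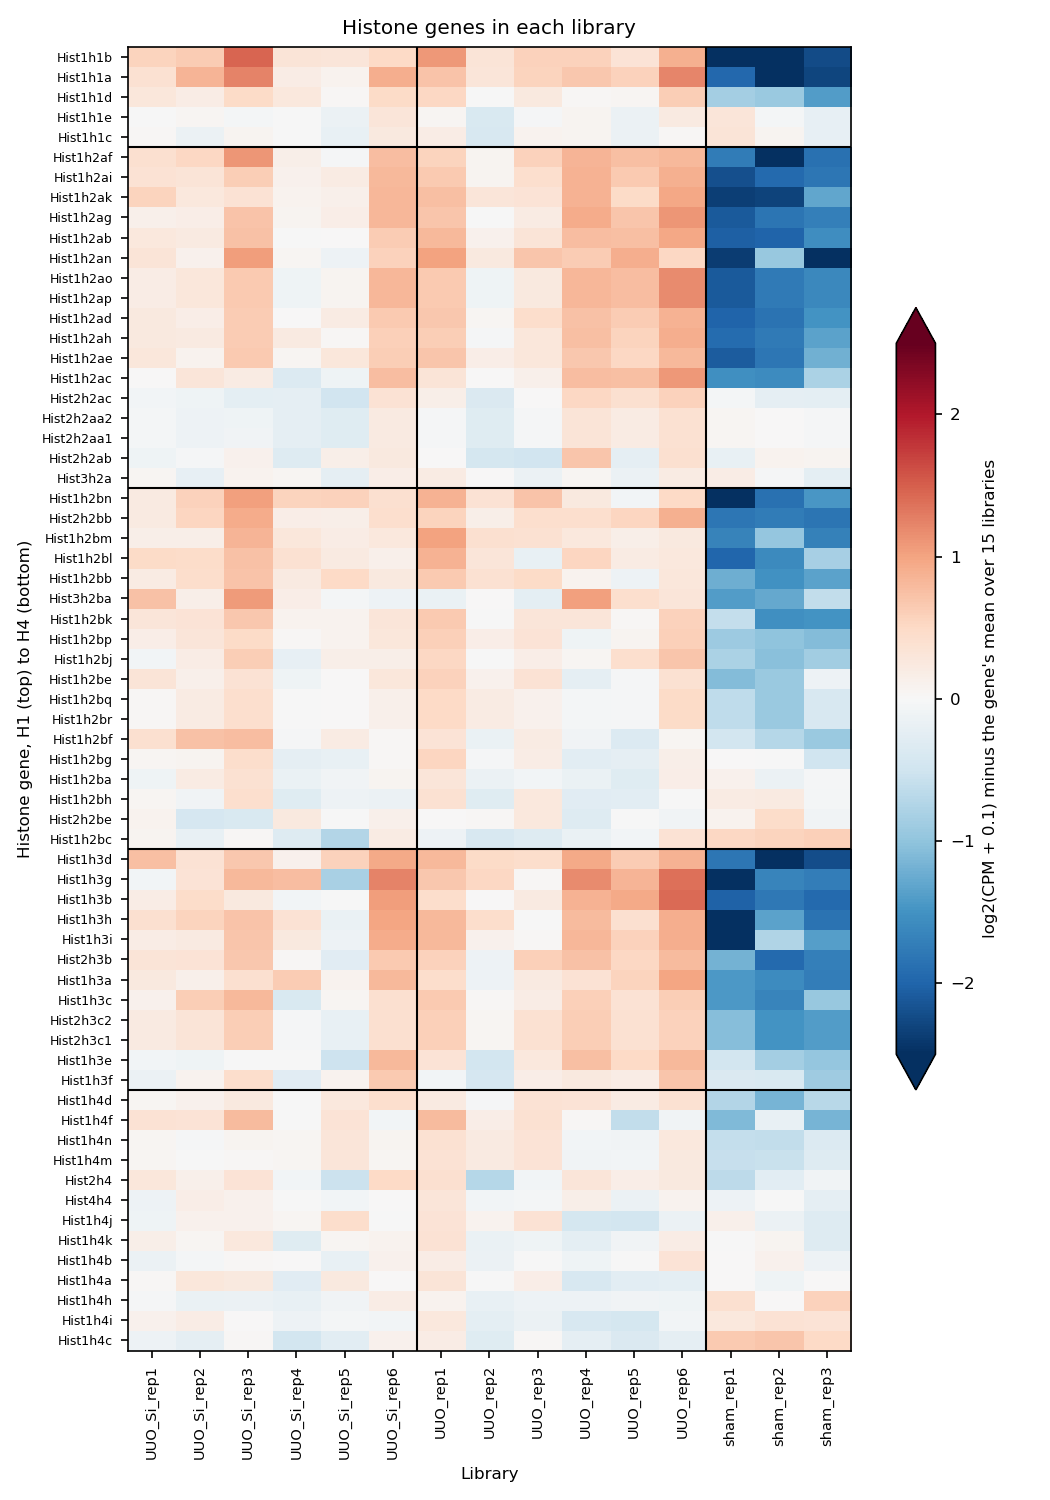
Each cell gives the level of a histone gene in a library as log2(CPM + 0.1) minus the mean of that gene over 15 libraries, with UUO_Si on the left, UUO in the middle and sham on the right; colours end at 2.5 in either direction. Most H1, H2A, H2B and H3 rows are blue in the 3 sham libraries, and Hist1h2bc and Hist1h4c are red there.

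Of 3 histone genes known from the testis, Hist1h1t and Hist1h2aa were under the filter. Hist1h1t, the testis linker histone, had 0 to 8 counts per library in UUO_Si, 2 to 14 in UUO and 1 to 6 in sham. Hist1h2aa had 1 count in UUO replicate 6 and 3 counts in sham replicate 3, and rounded to 0 in the other 13 libraries; these are 2 of the 4 libraries with many receptor genes. Hist1h2ba, the testis H2B, passed the filter at 2.103 ± 0.352 CPM in UUO and 2.098 ± 0.188 CPM in sham (log2 fold change 0.00 ± 0.27, adjusted p = 0.998). Its values were not whole, so reads shared with other H2B genes may be among them.

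Many H2A and H2B genes lie head to head and share the stretch of promoter between them. In 11 such pairs, at most 1000 bases apart, both genes were tested, and the H2A gene had the higher log2 fold change in 11 of 11, by a median of 1.35. The pair Hist1h2ao and Hist1h2bq holds the same values as the pair Hist1h2ap and Hist1h2br, so the 11 are not all separate. In the pair Hist1h2ac and Hist1h2bc, 251 bases apart, Hist1h2ac had a log2 fold change of 1.85 and Hist1h2bc of -0.66. In the pair Hist1h2ak and Hist1h2bn, 296 bases apart, the values were 2.61 and 2.43. These pairs were looked at after the class medians were known, and their genes share reads with genes of other pairs, so no test is given.

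The balance between classes differed within the obstructed groups. The summed level of H2A and H3 divided by that of H2B and H4 was 0.714, 0.711 and 0.674 in the sham libraries and above these in all 12 obstructed libraries. In UUO it was 0.868, 0.826 and 0.854 in replicates 1 to 3 but 1.28, 1.18 and 1.16 in replicates 4 to 6. In UUO_Si it was 0.770 to 0.884 in replicates 1 to 5 and 1.09 in replicate 6. Of these 4 libraries with a ratio above 1, 3 are among those with many receptor genes, and UUO replicate 4, with 119 such genes detected, is not. Sham replicate 3, which has many, had the lowest ratio. Histone genes are short and rich in G and C: 52 of the 65 were among the shortest 10% of the genes tested and 34 in the top 10% for GC content. The median deviation of the shortest 10% of all genes from their group means was 0.02 to 0.15 on the log2 scale in these 4 libraries and -0.11 to 0.04 in the 8 other obstructed libraries. The part of gene length and library in this ratio was not tested.

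**Figure D4:**
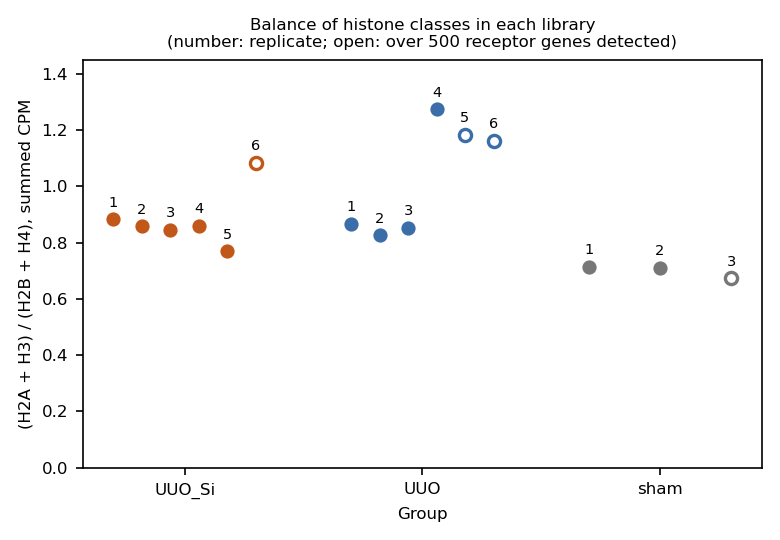
Ratio of the summed CPM of H2A and H3 to that of H2B and H4 in each library, numbered by replicate, with open circles for the 4 libraries in which over 500 receptor genes were detected. UUO replicates 4 to 6 and UUO_Si replicate 6 lie above 1, and the 3 sham libraries lie lowest, at 0.674 to 0.714.

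Genes that act with histones or in the same phase of the cell cycle were counted in 5 lists. Of all genes tested 27.5% were called higher in UUO than in sham and 26.4% lower. Of 14 mitosis genes 13 rose and Ccnb1 did not pass (median log2 fold change 1.84), with Mki67 at 161.9 ± 17.0 CPM in UUO and 27.7 ± 10.4 CPM in sham (2.55 ± 0.23, adjusted p = 6.37e-08). Of 27 S phase genes 16 rose, 2 fell and 9 did not pass (median 0.73). Mcm3, a subunit of the replicative helicase, rose by 2.0 ± 0.16 (adjusted p = 2.16e-08). Tyms, which makes thymidylate, fell by 0.93 ± 0.27 (adjusted p = 0.0074), and no longer passed once sham replicate 3 was left out (adjusted p = 0.175).

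Genes listed as replication-independent histone variants changed as well, and whether each is read outside S phase was not tested. Of these 11 genes 8 rose, 1 fell and 2 did not pass (median 0.91), against 27.5% higher and 26.4% lower among all genes. H3f3b, which encodes a replacement H3, rose by 0.91 ± 0.10 (adjusted p = 4.33e-07) and H2afx, which marks DNA breaks when phosphorylated, by 1.36 ± 0.18 (adjusted p = 7.68e-06). H2afj, an H2A variant, was at 39.4 ± 3.08 CPM in UUO and 84.3 ± 11.04 CPM in sham, and fell by 1.10 ± 0.11 (adjusted p = 1.83e-07). Of 12 histone chaperone genes 4 rose, Asf1b, Chaf1a, Chaf1b and Hat1, and 8 did not pass, a share of higher calls near the 27.5% of all genes. Chaf1b, a subunit of the complex that deposits new histones behind the fork, was at 7.60 ± 0.835 CPM in UUO and 2.48 ± 0.907 CPM in sham (1.62 ± 0.25, adjusted p = 2.72e-05).

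Genes for histone mRNA processing were called about as often as all genes. Of 13 tested, 5 rose, 2 fell and 6 did not pass (median 0.25), against 53.9% called among all genes, and the U7 RNA gene Rnu7 was under the filter. Slbp was at 30.2 ± 2.34 CPM in UUO and 24.5 ± 3.51 CPM in sham (0.30 ± 0.12, adjusted p = 0.044). Lsm11, part of the U7 particle, rose by 0.999 ± 0.16 (adjusted p = 5.23e-05), and Upf1, which acts in histone mRNA decay, fell by 0.46 ± 0.11 (adjusted p = 0.00168). Npat, the activator of histone gene transcription, had a log2 fold change of 0.15 ± 0.11 that did not pass (adjusted p = 0.246).

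Markers of kidney cell types changed as well. All 3 proximal tubule markers fell, with a summed level of 453.4 to 906.7 CPM in UUO and 9136 to 11280 CPM in sham. All 4 macrophage markers rose, with a sum of 367.7 to 461.3 CPM in UUO and 86.6 to 103.2 CPM in sham. The 3 fibroblast markers rose too, with sums of 3547 to 7116 CPM in UUO and 153.2 to 219.0 CPM in sham, and both T cell genes, Cd3e and Cd3g, rose. The markers of the loop of Henle, distal tubule, collecting duct and podocytes all fell, while for endothelium Pecam1 rose and Kdr fell. None of the B cell, neutrophil and erythroid markers passed. No marker was at 0 in every library of a group. The part of these changes in the histone levels was not tested.

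With the silicon-based diet, no histone gene passed the test against obstruction on normal diet. In edgeR's quasi-likelihood test 0 of 65 were called, as were 0 of all 16752 genes (0.0%), and DESeq2 and limma-voom also called 0 histone genes. At an unadjusted p under 0.05 there was 1 histone gene, against 626 of all genes (3.74%), and no histone gene was without overlap between the groups, against 0.203% of all genes. The median log2 fold change was -0.07 over the 65 histone genes and 0.00 over all genes. The summed level of all 68 was 1119, 1243 and 1498 CPM in the lowest, median and highest UUO_Si library, against 1065, 1345 and 1570 CPM in UUO. With UUO_Si at a mean of 1280.0 ± 152 CPM and UUO at 1344 ± 173.3 CPM (SD, n = 6 each), the difference was smaller than either spread.

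For 3 genes that rose after obstruction, the difference between the diets had a 95% interval on both sides of 0. Hist1h1a had 10.4, 15.2 and 23.3 CPM in UUO_Si, against 12.01, 15.1 and 23.0 CPM in UUO, a log2 fold change of -0.03 ± 0.21 (95% interval -0.48 to 0.42). Hist1h1b had 13.6, 15.99 and 30.3 CPM in UUO_Si, against 13.8, 16.4 and 23.4 CPM in UUO (0.03 ± 0.19, interval -0.37 to 0.44). Hist2h2bb had 29.3, 33.0 and 50.5 CPM in UUO_Si, against 29.3, 36.9 and 49.0 CPM in UUO (-0.08 ± 0.14, interval -0.37 to 0.21). Hist1h2bc and Hist1h4c, which had fallen with obstruction, stood at -0.02 ± 0.14 (interval -0.33 to 0.28) and 0.00 ± 0.12 (interval -0.24 to 0.25) between the diets.

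The smallest p-values between the diets belonged to 3 genes that did not pass. Hist2h2ac had 25.1, 31.0 and 44.5 CPM in UUO_Si, against 27.3, 42.1 and 51.9 CPM in UUO (-0.35 ± 0.15, unadjusted p = 0.0346, adjusted p = 0.999 in edgeR). Hist1h2bf, an H2B gene, had 4.71, 5.95 and 8.26 CPM in UUO_Si, against 3.74, 4.73 and 6.11 CPM in UUO (0.38 ± 0.18, unadjusted p = 0.0536, adjusted p = 0.999 in edgeR). Hist1h2ab, a core H2A gene, had a log2 fold change of -0.31 ± 0.17 (unadjusted p = 0.0874). The libraries of the diets overlapped for all 3.

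By class, small differences pointed mostly down for H2A and H3. All 17 H2A genes tested and 11 of 12 H3 genes had log2 fold changes below 0, with medians of -0.25 and -0.19. Of all 16752 genes 8318 lay below 0. The medians of H2B, H4 and H1 were -0.02, 0.03 and 0.03. Copies that share reads do not count as separate genes here, and no gene passed. The H2A sum was 259.7, 299.8 and 394.3 CPM in the lowest, median and highest UUO_Si library, against 260.9, 366.5 and 449.4 CPM in UUO. The H3 sum was 76.3, 96.8 and 139.2 CPM in UUO_Si, against 80.7, 118.3 and 151.1 CPM in UUO. The diets overlapped in both sums, and the high UUO values were those of replicates 4 to 6 for H2A. Without the UUO and UUO_Si libraries with codes RM6 and RM7, which are UUO replicates 5 and 6 and UUO_Si replicate 6, the H2A median was -0.22 with 17 of 17 below 0. Without UUO replicate 4 the H2A median was -0.20 with 16 of 17. No setting left out UUO replicates 4 to 6 and UUO_Si replicate 6 together. In the remaining libraries the H2A sum was 351.6, 260.9 and 311.2 CPM in UUO replicates 1 to 3. It was 259.7 to 338.0 CPM in UUO_Si replicates 1 to 5, with overlap.

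Among the genes that work with histones, none passed between the diets either. The counts were 0 of 11 variants, 0 of 13 processing genes, 0 of 12 chaperones, 0 of 27 S phase genes and 0 of 14 mitosis genes. The median log2 fold change was 0.06 for the mitosis genes, -0.03 for the variants, -0.02 for the processing genes, 0.02 for the chaperones and -0.01 for the S phase genes. The summed mitosis genes spanned 328.2 to 644.6 CPM in UUO_Si and 349.6 to 448.4 CPM in UUO.

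Against sham, obstruction with the silicon-based diet gave 44 histone genes higher and 3 lower, where 52.7% of all genes were called, 27.2% higher and 25.5% lower. This comparison uses the same 3 sham libraries as that of UUO with sham, so their values are set side by side and are not separate evidence. Against sham, Hist1h1a had log2 fold changes of 3.17 in UUO_Si and 3.20 in UUO, and Hist1h3d of 3.06 in UUO_Si and 3.17 in UUO. Hist2h2bb had 2.23 in UUO_Si and 2.32 in UUO, and Hist1h4d 1.04 in UUO_Si and 1.10 in UUO. Hist1h2bc fell by 0.68 in UUO_Si and by 0.66 in UUO, and Hist1h4c fell by 0.76 in each. Hist1h4h fell by 0.40 in UUO_Si (adjusted p = 0.00927 in edgeR), while Hist1h4i did not pass there (adjusted p = 0.163).

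The annotated transcripts differ in how far they run on past the stem-loop, a feature that the choice of genes did not use. For 23 tested genes the annotation ends within 100 bases of it; 18 of them were called higher and 1 lower in UUO than in sham, with a median log2 fold change of 1.47. For 22 tested genes it runs on for more than 100 bases, and 11 were called higher and 2 lower, with a median of 0.56. Among all genes 27.5% were called higher and 26.4% lower. The 2 groups differ in class, with 7 H4 and 3 H1 genes among the 22, and 5 H4 and 0 H1 genes among the 23. Medians within a class, shorter group first, were 2.472 and 1.845 for H2A and 1.395 and 0.558 for H2B. They were 2.384 and 1.775 for H3 and 0.678 and 0.088 for H4. The part of class was not tested. The 20 tested genes with no match had a median of 2.21. Some of them have short annotated transcripts, such as 381 bases for Hist1h2bl and 393 for Hist1h2ai. A missing match there does not show that the gene lacks the stem-loop. Genes that went with the split include Hist1h1c, which runs on for 840 bases, Hist1h1e for 1153 and Hist1h4c for 454, and Hist1h3b, which ends after 51. The 11 longer ones called higher went against it. Among them Hist1h3d runs on for 752 bases and rose by 3.17, Hist1h2ac for 2010 and rose by 1.85, and Hist1h1d for 4884 and rose by 1.30. Of the shorter ones Hist1h4h, which ends after 46, fell, and some did not pass, such as Hist1h4b, which ends after 28 (0.05). Over the 45 genes Spearman's rho between this length and the fold change was -0.296, a description over genes that share reads and annotation. Reads past the stem-loop were not counted separately in the table.

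**Figure D5:**
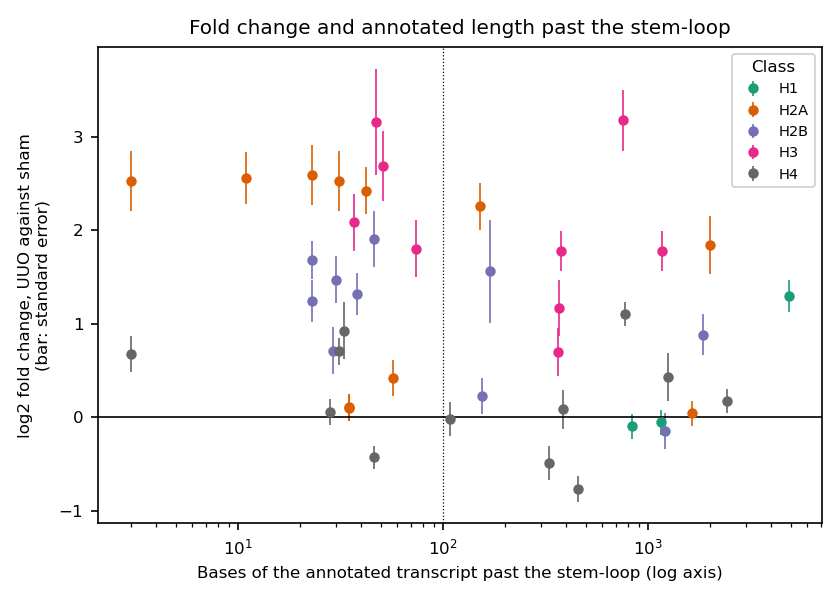
Log2 fold change of UUO against sham, with its standard error, against the bases of annotated transcript past the stem-loop (log axis) for 45 histone genes, coloured by class. The dotted line marks 100 bases, to the left of which the median is 1.47 and to the right 0.56.

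Promoters of 61 histone genes were found in RefSeq (GRCm38.p6), each as the 250 bases before the annotated start. They were searched on both strands for CCAAT, for the TATA box as TATAA, for the octamer ATTTGCAT known from H2B promoters, and for AAACACA, an element known from H1 promoters. CCAAT was present in 82.0% of them and in 33.8% of all promoters of the table, TATAA in 65.6% and 22.8%, the octamer in 23.0% and 1.6%, and AAACACA in 14.8% and 6.25%. CCAAT was found in all promoters of H1, H2A and H2B genes but in 3 of 12 of H4 genes. AAACACA was found in 5 of 6 H1 promoters, and the octamer in 7 of 17 H2A and 7 of 16 H2B promoters. The octamer lay on the strand of the gene in the H2B promoters and on the opposite strand in the H2A promoters. Windows of head-to-head genes can overlap, so the same bases can count for both genes. This was so for the octamer of Hist1h2ah and Hist1h2bk, of Hist1h2ae and Hist1h2bg, and of Hist1h2aa and Hist1h2ba. H2B genes with the octamer had a median log2 fold change of 1.47 and those without it of 1.24. H2A genes with it had 2.05 and those without it 2.54.

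The promoters of 3 genes are printed. Hist1h1b rose and Hist1h1c did not pass although both hold CCAAT and AAACACA, and Hist2h2bb is an H2B gene with whole counts that rose. Capitals mark matches to the 4 motifs on either strand, and a run of capitals in Hist1h1b holds TATAA on both strands.
Hist1h1b (chr13:21780626-21780875, minus strand): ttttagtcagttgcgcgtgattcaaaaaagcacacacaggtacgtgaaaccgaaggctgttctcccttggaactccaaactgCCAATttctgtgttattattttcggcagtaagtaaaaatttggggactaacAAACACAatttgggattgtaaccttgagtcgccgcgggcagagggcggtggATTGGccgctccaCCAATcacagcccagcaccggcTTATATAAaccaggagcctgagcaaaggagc
Hist1h1c (chr13:23738557-23738806, plus strand): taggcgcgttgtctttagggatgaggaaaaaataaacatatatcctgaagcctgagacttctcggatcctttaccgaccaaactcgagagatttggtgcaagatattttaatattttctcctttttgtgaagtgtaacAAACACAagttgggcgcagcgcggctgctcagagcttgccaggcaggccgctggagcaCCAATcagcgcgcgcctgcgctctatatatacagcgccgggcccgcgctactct
Hist2h2bb (chr3:96269450-96269699, plus strand): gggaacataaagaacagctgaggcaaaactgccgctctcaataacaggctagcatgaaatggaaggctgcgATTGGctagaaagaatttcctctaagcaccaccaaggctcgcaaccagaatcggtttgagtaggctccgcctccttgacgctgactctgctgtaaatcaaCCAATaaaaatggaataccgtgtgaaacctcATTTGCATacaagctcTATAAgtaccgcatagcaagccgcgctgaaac
Hist1h1a, which rose as much as Hist1h1b, has no match to AAACACA in this window. Hist1h1c has no TATAA in it, although its window holds the letters tatatata, which the search did not count. The matches describe the letters of these windows and do not show that a factor binds there.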

How the data were processed

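Libraries of total kidney RNA were prepared by the stranded SMARTer Pico method, per the labels' protocols. The authors deposited a table of expected counts per gene symbol in 15 libraries; the values are not normalised and many are fractions. Per the submitters' processing notes, TopHat2 2.1.1, Cuffdiff 2.2.1 and build mm10 stand behind them; neither the role of each tool nor strand setting or annotation is given in the sources used here. With no strand setting, reads from overlapping genes on opposite strands cannot be told apart. All columns were used.

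The expected counts were rounded and tested with edgeR 4.0.16 in R 4.3.3 (quasi-likelihood, robust, TMM, filterByExpr with a minimum count of 10), with all 15 libraries in a fit with a mean per group. Genes were called at a Benjamini-Hochberg adjusted p below 0.05 over 16752 genes, whatever the size of the change. Standard errors are the log2 fold change over the root of its F statistic, and 95% intervals use the t distribution of that test. Library totals of 5.53 to 15.4 (in units of 1000000 counts) limit the precision of genes with few counts; intervals and errors cover no bias from read sharing. Positions, lengths and stem-loops were taken from GENCODE M21 (GRCm38), promoters from RefSeq. Alternatives included DESeq2 1.42.0 and limma 3.58.1 (voom with sample weights). The steps were tested on simulated data.

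The histone genes and the companion lists were chosen with earlier results of these data known. Named histone genes were, per class, the 2 of highest mean level and up to 3 of smallest p among those called in UUO against sham. Added to them were the 3 of smallest p between the diets, those called against the main direction and the testis genes. Named companions were up to 4 of smallest p per list and up to 3 against its direction. Genes named for whole counts, for a head-to-head partner, for their cluster, as the lowest of their class (Hist1h3f), as a regulator that did not pass (Npat) or for their call under few settings were chosen after their values were seen. 1 of the named companions is not reported here.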

Additional observations from a re-analysis of the deposited data

Results flagged for a closer look

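In the groups of 6 libraries, 78 sets of values of histone genes and sums were examined for a single library far from the rest, and 9 stood apart; chance gives about 1 in 20. In UUO_Si replicate 3 Hist1h1b was at 30.3 CPM against 13.6 to 17.3 CPM in the other 5 libraries of its group. The same library had Hist1h2bn at 30.1 CPM against 17.3 to 22.0 CPM, and a sum of Hist1h1a and Hist1h1b of 53.6 CPM against 24.0 to 34.9 CPM. In UUO_Si replicate 6, which has many receptor genes, Hist1h3e was at 24.4 CPM against 9.67 to 13.8 CPM. Its ratio of H2A and H3 to H2B and H4 was 1.09 against 0.770 to 0.884.

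In UUO replicate 6, also with many receptor genes, Hist1h1a was at 23.0 CPM against 12.01 to 16.1 CPM. Hist1h2aa was at 0.0827 CPM there, which is 1 count, against 0 in the other 5 libraries. In UUO replicate 1 Hist1h4h was at 31.2 CPM against 25.6 to 27.5 CPM. Hist1h4n was at 16.7 CPM in UUO_Si replicate 5 against 13.1 to 14.1 CPM in the other UUO_Si libraries. Of the 9, 4 belonged to libraries with many receptor genes; the part of these libraries in the values was not tested.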

How the results depend on the processing

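In 27 alternative settings no named result reversed its direction where it was called. Histone genes called lower in UUO than in sham numbered 4, and 2 without the 4 libraries rich in receptor genes; they ranged from 2 to 4 when single libraries were left out, with 2 without sham replicate 3. Those called higher against sham ranged over all settings from 40 to 44 in UUO_Si, with 40 under the replicate block, and from 41 to 46 in UUO; when single libraries were left out they ranged from 41 to 44 in UUO_Si. Histone mRNA processing genes called ranged from 4 to 7, with 4 without sham replicate 1. Between the diets 0 histone genes were called in every setting. With no filter the median of all genes was -0.20 (UUO against sham) and -0.23 (UUO_Si against sham), so the histone values there stand relative to a lower centre.

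The deviations of libraries with the same replicate number in different groups correlated at -0.390 to 0.754, and those with different numbers at -0.650 to 0.634. The highest value was that of UUO replicate 6 with UUO_Si replicate 6, which both have many receptor genes. These ranges do not settle whether equal numbers pair the samples. With the replicate block 45 of 48 calls in UUO against sham and 43 of 47 in UUO_Si against sham were kept; Hist3h2ba, Hist1h4i and Hist1h3f lost theirs in the first. Hist1h2bf, called higher in UUO than in sham, lost its call under 5 settings, and Hist1h3e lost its call in UUO_Si against sham under 6. The 3 sham libraries are the narrowest base of these results, and reads shared between copies limit what can be said of single genes whatever the depth.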
